A study of Oryctolagus cuniculus with 6 samples.

Results

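The genes described here encode the antioxidant enzymes, the NRF2 pathway and the proteins that move and store iron, and they were measured by RNA-seq in the injured facial nerve of rabbits with and without an implanted I-125 seed. They were given as a list of 34 symbols, set by name and not by a threshold on their values, but with earlier results of these data known. A row was found for 31 of them among the 17396 genes in the files, and PRDX2, PRDX5 and GPX4 were not analysed here. All 31 passed the filter on low counts, which kept 14003 genes. Each of the 6 libraries came from the facial nerve of 1 wild-type male Japanese white rabbit of 3 to 4 months. Every rabbit had its facial nerve cut at the main trunk, so both groups share the injury. The FNI group (facial nerve injury) had no seed, and in the FNI+I-125 group a radioactive iodine seed of 0.8 mCi lay beside the nerve. All nerves were taken on day 14, with 3 rabbits in each group, and the sham group was not analysed here.

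NRF2, encoded by NFE2L2, is a transcription factor that KEAP1 holds for degradation until oxidants or electrophiles modify KEAP1. NRF2 then enters the nucleus and binds antioxidant response elements near genes for quinone reduction, haem breakdown, thioredoxin and glutathione recycling, and ferritin. Iron is tied to this system because free ferrous iron turns hydrogen peroxide into reactive radicals. Cells take up iron through the transferrin receptor (TFRC) and the divalent metal transporter DMT1 (SLC11A2), store it in ferritin (FTL and FTH1) and export it through ferroportin (SLC40A1). Iron regulatory proteins (ACO1 and IREB2) bind iron-responsive elements in several of these transcripts when iron is low, which protects TFRC mRNA from decay and blocks translation of ferritin. In an injured nerve, Schwann cells and incoming macrophages both use these pathways while myelin and red cells are cleared.

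Values are TMM-normalized CPM, that is, counts scaled to a common library size, and values of single libraries are listed in the order of replicates 1, 2 and 3. Total counts ran from 16031151 to 16798012 per library. Differences are log2 fold changes of FNI+I-125 over FNI from edgeR's quasi-likelihood test across the 14003 genes, two-sided, with standard errors (SE). An exact permutation test of 3 libraries against 3 cannot give a p below 0.1, so for single genes the text gives whether the groups overlap. As a check of the labelled tissue, reads for all 10 Schwann cell markers were found in every library, among them PMP22 and PRX, at a summed 4338 to 38688 CPM in FNI and 820 to 3982 CPM in FNI+I-125. The libraries were not equal in the other tissues they held. Skeletal muscle markers summed to 4831 and 4244 CPM in FNI+I-125 replicates 1 and 2 and to at most 157 CPM elsewhere, and salivary gland markers reached 49683 CPM in FNI replicate 2 and 19.1 to 2783 CPM elsewhere. In bulk tissue, fewer cells of a type and less RNA per cell cannot be told apart.

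Across the 31 genes, differences in the higher direction were the more frequent. At an unadjusted p under 0.05 from edgeR, 13 genes (41.9%) were higher in FNI+I-125, against 9.23% of all genes tested, and 1 gene, GPX3, was lower (3.23%, against 7.73%). The 13 were NFE2L2, NQO1, HMOX1, HMOX2, TXN, TXNRD1, SRXN1, PRDX1, FTL, TFRC, SLC11A2, SLC11A1 and ACO1. Every FNI+I-125 library lay above every FNI library for 14 genes (45.2%, against 14.8% of all genes), these 13 and GPX1. The reverse held for 2 genes (6.45%, against 12.3%), GPX3 and SLC40A1, and the remaining 15 genes overlapped. The median log2 fold change of the 31 genes was 0.38, beside 0.01 for all genes tested, and 22 of the 31 were above 0, beside 51.1% of all genes.

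**Figure D1:**
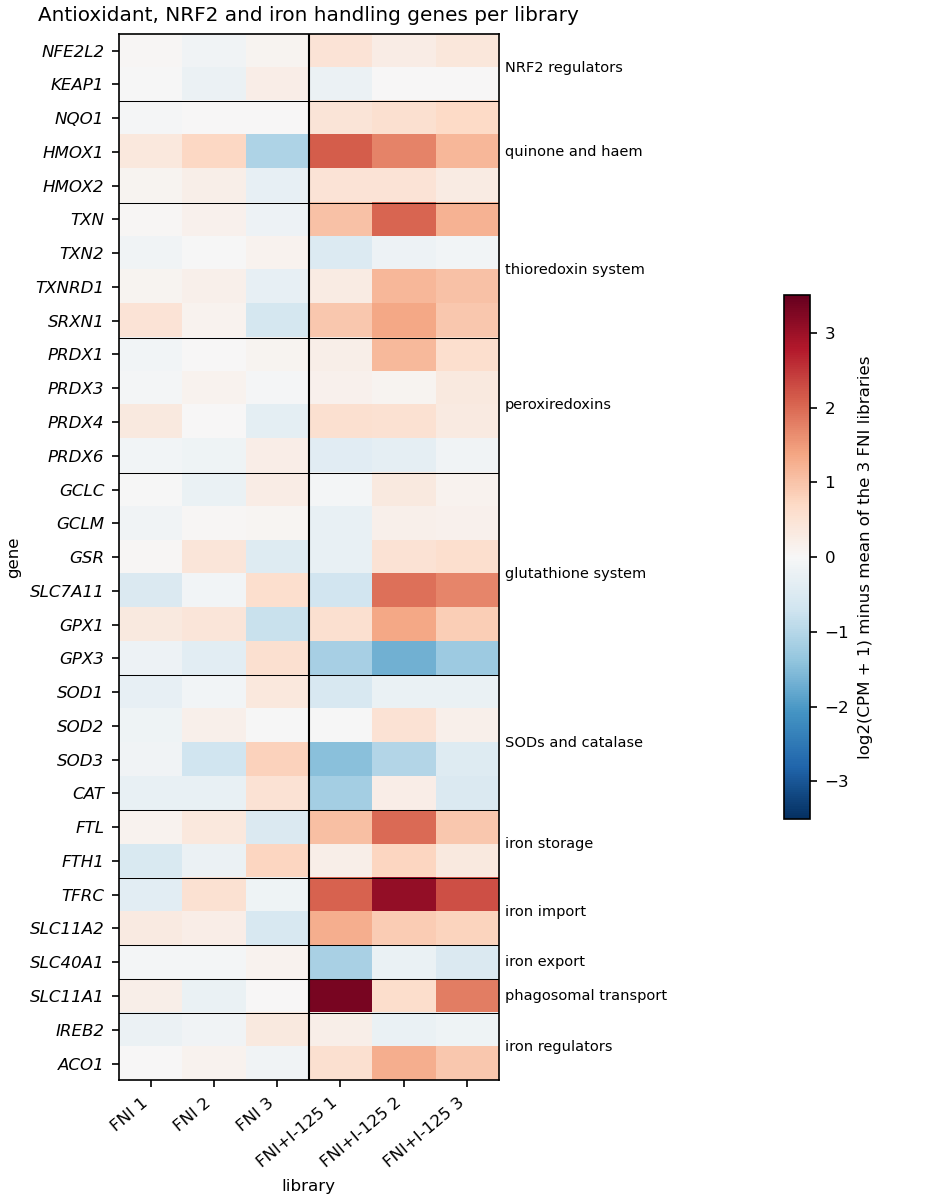
Heat map of the 31 genes (rows, grouped by role) in the 6 libraries (columns), coloured by log2(CPM + 1) minus the mean of the 3 FNI libraries, with red for higher and blue for lower. The FNI+I-125 columns are red in all 3 libraries for the 14 genes that are higher without overlap, among them TFRC, HMOX1, TXN and FTL, and blue in all 3 for GPX3 and SLC40A1. Some genes that overlap between the groups also keep a single colour in all 3, such as PRDX4 and FTH1 (red) and TXN2 and SOD3 (blue).

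No gene passed the adjusted threshold in the main test. With Benjamini-Hochberg adjustment over all 14003 genes, edgeR's quasi-likelihood test called 0 of the 31 genes and 0 genes in all (0.0%) at an adjusted p under 0.05, where 2375 genes had an unadjusted p under 0.05. Of the genes at an unadjusted p under 0.05, HMOX2 had an adjusted p of 0.288 from this test and the other 13 had 0.280. DESeq2's Wald test, run as an alternative, called 9 of the 31 at an adjusted p under 0.05. Of these, 8 were higher (NQO1, HMOX1, TXN, FTL, TFRC, SLC11A2, SLC11A1 and ACO1), with 3.86% of all genes called in that direction, and GPX3 was lower, with 2.62%. HMOX1, TFRC and SLC11A1 were also at a log2 fold change of 1.5 or more, the size of change the study required, which DESeq2 called in 2.08% of genes in the higher direction. In the 15 fits with edgeR or limma-voom, leaving out libraries included, the adjusted p of these 9 genes ran from 0.158 to 0.505. NQO1, TXN, GPX3, TFRC and ACO1 were called in all 7 fits with DESeq2, with all libraries and with each left out, while SLC11A2 was called in 2, HMOX1 and FTL in 4 and SLC11A1 in 5.

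**Figure D2:**
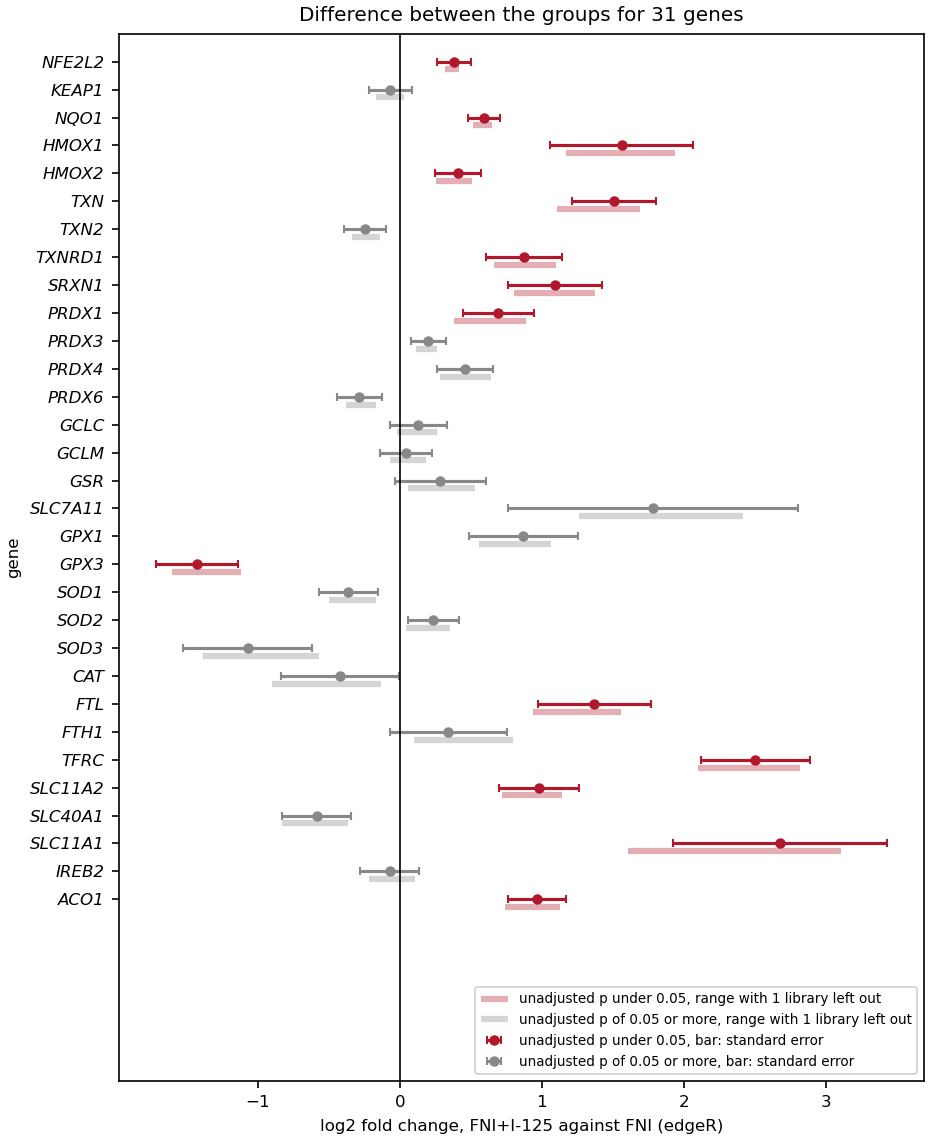
Log2 fold change of FNI+I-125 over FNI for the 31 genes, with points and thin bars for the edgeR estimate and its standard error and thick bars for the range of estimates with 1 library left out. TFRC (2.50) and SLC11A1 (2.68) lie farthest to the right and GPX3 (-1.43) farthest to the left, and the thick bars of KEAP1, GCLC, GCLM and IREB2 cross 0.

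The transcript of NRF2 itself was slightly higher with the seed, and that of its repressor was not. NFE2L2 stood at 113, 102 and 117 CPM in FNI and 155, 132 and 146 CPM in FNI+I-125. The groups did not overlap, and the log2 fold change was 0.38 (SE 0.12, unadjusted p = 0.0207 from edgeR), a fold of 1.30. Its p stayed under 0.05 without FNI replicate 3 or FNI+I-125 replicate 2 and not without any of the other libraries, where the log2 fold change was 0.32 to 0.40. KEAP1, the adaptor that targets NRF2 for degradation, stood at 112, 98.0 and 132 CPM in FNI and 98.0, 114 and 115 CPM in FNI+I-125, with a log2 fold change of -0.07 (SE 0.15, unadjusted p = 0.672 from edgeR). Within each library, the ratio of NFE2L2 to KEAP1 counts was 0.886 to 1.04 in FNI and 1.16 to 1.58 in FNI+I-125. This ratio and the others below were chosen after the values had been seen, and since gene length cancels between libraries but not between genes, they are read only across libraries.

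Of the 12 genes marked here as NRF2 targets, 7 were higher and 5 overlapped between the groups. The marking was made with earlier results of these data known and need not be complete. All 12 had a log2 fold change above 0, with a median of 0.78 and a range of 0.04 to 1.78, and 7 of them had an unadjusted p under 0.05 from edgeR (against 9.23% of all genes in the higher direction) and did not overlap (against 14.8%). The 19 other genes had a median of 0.20, with 6 higher and 1 lower at that p. Of these 19, 10 had a log2 fold change above 0 and 9 below, among the latter SLC40A1 (-0.59) and PRDX6 (-0.28). The medians of the 12 and the 19 thus depend on which genes were marked. The 5 targets that overlapped were GCLC, GCLM, GSR, SLC7A11 and FTH1.

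NQO1, which reduces quinones without a radical intermediate, showed little spread. It stood at 33.7, 35.3 and 34.9 CPM in FNI and 48.0, 51.7 and 57.1 CPM in FNI+I-125. The means were 34.7 ± 0.83 CPM and 52.3 ± 4.57 CPM (SD, n = 3 each), with no overlap. Its log2 fold change was 0.59 (SE 0.11, unadjusted p = 0.00193 from edgeR), a fold of 1.51, and stayed between 0.52 and 0.65 with each library left out.

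HMOX1, the inducible haem oxygenase that releases iron from haem, had a larger difference and a wider spread. It stood at 44.2, 57.2 and 15.7 CPM in FNI and 151, 117 and 77.8 CPM in FNI+I-125. The lowest seed library was above the highest FNI library. The log2 fold change of HMOX1 was 1.56 (SE 0.50, unadjusted p = 0.0211 from edgeR), a fold of 2.95, and ran from 1.17 without FNI replicate 3 to 1.94 without FNI replicate 2. Its p was no longer under 0.05 without FNI+I-125 replicate 1 or replicate 2, where the log2 fold change was 1.32 and 1.53. HMOX2, the constitutive haem oxygenase, stood at 46.4, 49.6 and 34.9 CPM in FNI and 60.1, 60.9 and 53.1 CPM in FNI+I-125, again with no overlap. Its log2 fold change was 0.41 (SE 0.16, unadjusted p = 0.0454 from edgeR), and with a library left out the p stayed under 0.05 without FNI replicate 2 and in no other case, with a log2 fold change of 0.26 without FNI replicate 3.

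In the thioredoxin system, 3 of 4 genes were higher at an unadjusted p under 0.05 from edgeR, against 9.23% of all genes. TXN, the cytosolic thioredoxin that reduces disulfides in peroxiredoxins and other proteins, stood at 67.2, 71.4 and 56.6 CPM in FNI and 134, 269 and 152 CPM in FNI+I-125. Its lowest seed library was well above its highest FNI library, and replicate 2 was the highest of the seed group. For TXN the log2 fold change was 1.51 (SE 0.29, unadjusted p = 0.00216 from edgeR), a fold of 2.84, and 1.11 without FNI+I-125 replicate 2. TXN2, the mitochondrial thioredoxin, stood at 47.1, 50.8 and 55.6 CPM in FNI and 36.4, 44.9 and 48.1 CPM in FNI+I-125, with a log2 fold change of -0.25 (SE 0.15, unadjusted p = 0.145 from edgeR). The ratio of TXN to TXN2 counts was 1.02 to 1.43 in the FNI libraries and 3.16 to 6.00 in the FNI+I-125 libraries.

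TXNRD1, the selenoenzyme that returns thioredoxin to its reduced form with NADPH, stood at 38.1, 40.8 and 29.1 CPM in FNI and 43.4, 81.3 and 73.2 CPM in FNI+I-125. Replicate 1 of the seed group lay only just above the highest FNI library. For TXNRD1 the log2 fold change was 0.87 (SE 0.27, unadjusted p = 0.0175 from edgeR), and its p was not under 0.05 without FNI replicate 3, FNI+I-125 replicate 2 or FNI+I-125 replicate 3 (0.72, 0.67 and 0.79). SRXN1, sulfiredoxin, which repairs overoxidized peroxiredoxins, stood at 14.9, 11.5 and 6.50 CPM in FNI and 20.9, 28.2 and 21.1 CPM in FNI+I-125. The groups did not overlap for SRXN1, with a log2 fold change of 1.09 (SE 0.33, unadjusted p = 0.0158 from edgeR) that became 0.91, with a p no longer under 0.05, without FNI+I-125 replicate 2.

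Peroxiredoxins reduce hydrogen peroxide with electrons from thioredoxin, and of the 4 analysed only PRDX1 had an unadjusted p under 0.05. PRDX1, a cytosolic form, stood at 174, 187 and 197 CPM in FNI and 214, 407 and 281 CPM in FNI+I-125. No seed library overlapped with FNI, with the widest gap in replicate 2. PRDX1 had a log2 fold change of 0.69 (SE 0.25, unadjusted p = 0.0319 from edgeR). It was 0.38 without FNI+I-125 replicate 2, and the p stayed under 0.05 without FNI+I-125 replicate 1 and in no other case. PRDX3, the mitochondrial form, had a log2 fold change of 0.20 (SE 0.12), PRDX4, of the endoplasmic reticulum, 0.46 (SE 0.20), and PRDX6, which works with glutathione, -0.28 (SE 0.16). All 3 overlapped between the groups, and PRDX4 reached a p under 0.05 without FNI replicate 1, at 0.64, but not without any other library.

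**Figure D3:**
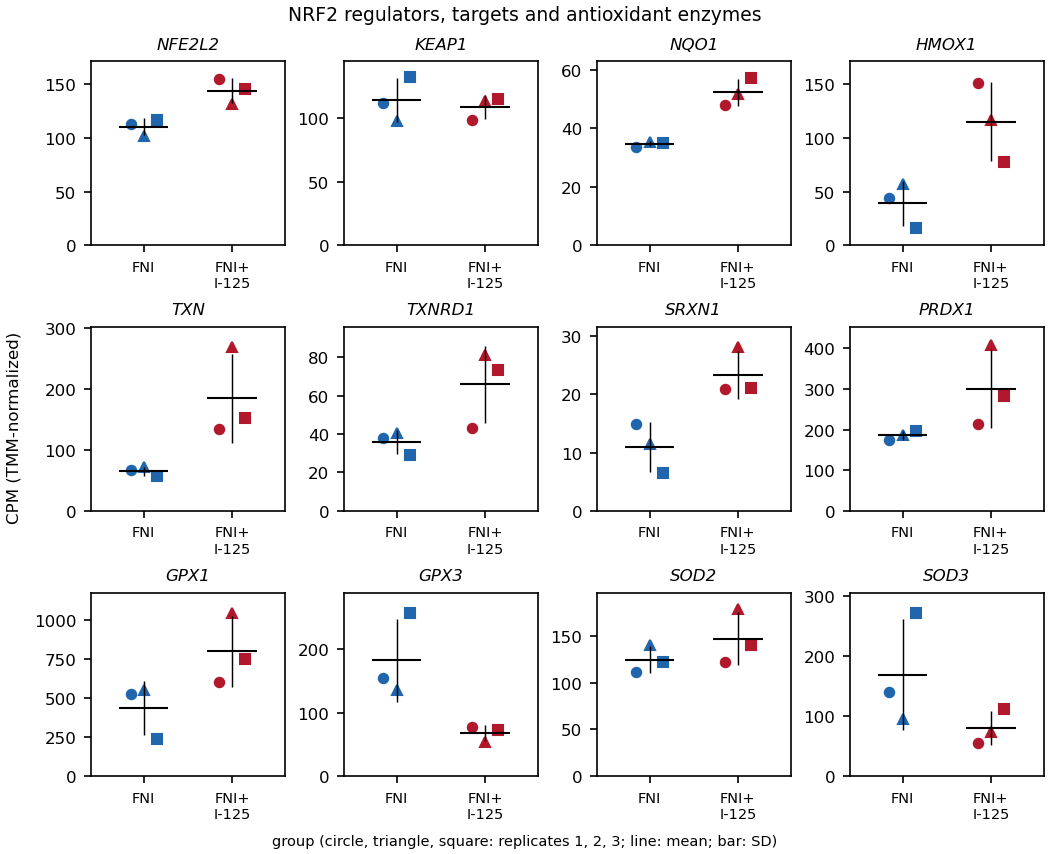
CPM of 12 NRF2 pathway and antioxidant genes in each library (circle, triangle and square for replicates 1, 2 and 3), with group means as lines and SD as bars. NQO1 runs from 33.7 to 35.3 CPM in FNI and from 48.0 to 57.1 CPM in FNI+I-125, while GPX3 lies lower in all 3 FNI+I-125 libraries and KEAP1, SOD2 and SOD3 overlap.

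Genes of glutathione synthesis and recycling overlapped between the groups. GCLC and GCLM, the catalytic and modifier subunits of the rate-limiting enzyme of glutathione synthesis, had log2 fold changes of 0.13 (SE 0.20) and 0.04 (SE 0.18). Leaving out 1 library turned the sign of both, GCLC to -0.02 without FNI+I-125 replicate 2 and GCLM to as low as -0.07 without the same library. GSR, which returns oxidized glutathione to its reduced form, stood at 30.5, 40.4 and 21.3 CPM in FNI and 24.8, 42.5 and 45.0 CPM in FNI+I-125, a log2 fold change of 0.29 (SE 0.32).

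SLC7A11, the cystine carrier that feeds glutathione synthesis, was sparse, with counts of 11, 19 and 42 in FNI and 7, 129 and 113 in FNI+I-125. Replicate 1 of the seed group held the lowest value of all 6 libraries and the other two the highest. Its log2 fold change of 1.78 (SE 1.02, unadjusted p = 0.131 from edgeR) became 2.33, with a p under 0.05, without FNI+I-125 replicate 1 and 1.26 without FNI+I-125 replicate 2.

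The glutathione peroxidases analysed lay in opposite directions, and GPX3 alone of them had an unadjusted p under 0.05. GPX1, the cytosolic enzyme found in most cells, stood at 525, 552 and 238 CPM in FNI and 604, 1049 and 750 CPM in FNI+I-125. The groups did not overlap for GPX1, but the log2 fold change of 0.87 (SE 0.38) had an unadjusted p of 0.0634 from edgeR. GPX3, the secreted form found in plasma, stood at 154, 136 and 257 CPM in FNI and 77.1, 53.6 and 72.5 CPM in FNI+I-125. Every seed library of GPX3 was below every FNI library, with means of 182 ± 65.5 CPM and 67.7 ± 12.5 CPM (SD, n = 3 each). The log2 fold change of GPX3 was -1.43 (SE 0.29, unadjusted p = 0.00265 from edgeR), a fold of 0.371, and stayed between -1.60 and -1.12 with each library left out. The ratio of GPX1 to GPX3 counts was 0.925 to 4.07 in FNI and 7.84 to 19.6 in FNI+I-125.

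Superoxide dismutases turn superoxide into hydrogen peroxide and catalase breaks that down, and none of these 4 genes had an unadjusted p under 0.05. SOD1, of the cytosol, had a log2 fold change of -0.36 (SE 0.21) and SOD2, of the mitochondrion, 0.24 (SE 0.18). SOD3, which is secreted and binds the matrix, stood at 141, 95.1 and 272 CPM in FNI and 55.4, 74.7 and 112 CPM in FNI+I-125. FNI replicate 2 lay below the highest seed library. SOD3 had a log2 fold change of -1.07 (SE 0.45, unadjusted p = 0.0551 from edgeR). It had a p under 0.05 without FNI replicate 2 (-1.36) and without FNI+I-125 replicate 3 (-1.39), and was -0.57 without FNI replicate 3. CAT stood at 147, 147 and 251 CPM in FNI and 76.6, 208 and 122 CPM in FNI+I-125, a log2 fold change of -0.42 (SE 0.41) with wide overlap. The ratio of SOD2 to SOD1 counts was 0.831 to 1.33 in FNI and 1.44 to 1.86 in FNI+I-125.

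The largest log2 fold changes of the 31 genes, of SLC11A1 and TFRC, were of iron genes. Of 8 iron genes, 5 were higher at an unadjusted p under 0.05 from edgeR (against 9.23% of all genes) and none was lower (against 7.73%), with a median log2 fold change of 0.97. TFRC, the receptor that brings transferrin-bound iron into cells, stood at 38.3, 71.9 and 44.1 CPM in FNI and 209, 426 and 240 CPM in FNI+I-125. The lowest seed library was far above the highest FNI library, and the means were 51.5 ± 18.0 CPM and 292 ± 117 CPM (SD, n = 3 each). TFRC had a log2 fold change of 2.50 (SE 0.38, unadjusted p = 0.000608 from edgeR), a fold of 5.67, and stayed between 2.10 and 2.82 with each library left out.

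SLC11A2, which moves ferrous iron across the plasma and endosomal membranes, stood at 27.9, 26.2 and 14.8 CPM in FNI and 55.2, 41.8 and 38.9 CPM in FNI+I-125. No library overlapped with the other group, with a log2 fold change of 0.98 (SE 0.28, unadjusted p = 0.0133 from edgeR), a fold of 1.97. SLC40A1, the iron exporter, stood at 83.2, 83.5 and 95.7 CPM in FNI and 39.2, 74.2 and 61.5 CPM in FNI+I-125. Here the seed libraries were all below the FNI libraries, but the log2 fold change of -0.59 (SE 0.24) had an unadjusted p of 0.0521 from edgeR. The SLC40A1 difference was -0.37 without FNI+I-125 replicate 1 and -0.83, with a p under 0.05, without FNI+I-125 replicate 2. The ratio of TFRC to SLC40A1 counts was 0.461 to 0.862 in FNI and 3.91 to 5.75 in FNI+I-125.

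**Figure D4:**
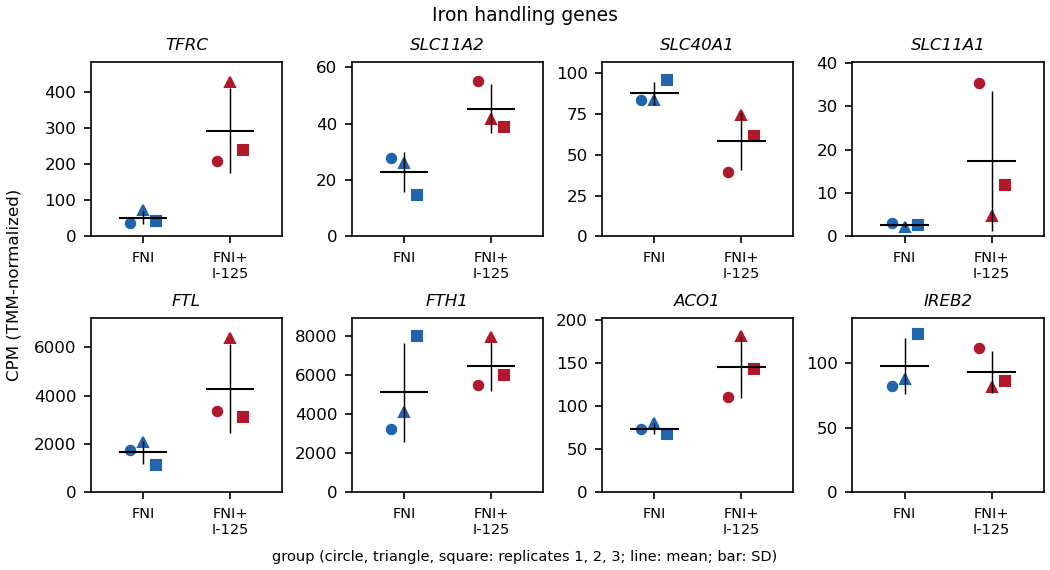
CPM of the 8 iron genes in each library (circle, triangle and square for replicates 1, 2 and 3), with group means as lines and SD as bars. TFRC lies at 38.3 to 71.9 CPM in FNI and 209 to 426 CPM in FNI+I-125, SLC40A1 is lower in all 3 FNI+I-125 libraries, and FTH1 and IREB2 overlap.

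Of the ferritin subunits, FTL was without overlap between the groups and FTH1 was not. FTL, the light chain, which helps iron form a mineral core, stood at 1761, 2071 and 1143 CPM in FNI and 3368, 6402 and 3106 CPM in FNI+I-125. The groups did not overlap for FTL, and replicate 2 of the seed group was the highest. FTL had a log2 fold change of 1.37 (SE 0.40, unadjusted p = 0.0137 from edgeR), a fold of 2.59, and 0.94 without FNI+I-125 replicate 2. FTH1, the heavy chain, which oxidizes ferrous iron, stood at 3271, 4097 and 7992 CPM in FNI and 5488, 7944 and 6028 CPM in FNI+I-125. FNI replicate 3 held the highest FTH1 value of all, so the groups overlapped, with a log2 fold change of 0.34 (SE 0.41, unadjusted p = 0.440 from edgeR). Without FNI replicate 3 the difference in FTH1 was 0.80, with a p under 0.05, and without FNI replicate 1 it was 0.10. The ratio of FTL to FTH1 counts was 0.143 to 0.538 in FNI and 0.515 to 0.806 in FNI+I-125, which overlapped. FTL, FTH1, TXN and PRDX1 have processed pseudogenes in mammals, and how reads shared with such copies were counted is not given in the sources used here, so their values are less certain.

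Of the iron regulatory proteins, ACO1, which is a cytosolic aconitase when it holds an iron-sulfur cluster and binds RNA when it does not, stood at 74.1, 80.6 and 68.0 CPM in FNI and 111, 182 and 143 CPM in FNI+I-125. All seed libraries were above all FNI libraries, with a log2 fold change of 0.97 (SE 0.20, unadjusted p = 0.00308 from edgeR), a fold of 1.95, and a range of 0.74 to 1.13 with each library left out. IREB2, which is degraded when iron is plentiful, stood at 82.5, 87.4 and 122 CPM in FNI and 111, 81.3 and 85.9 CPM in FNI+I-125, a log2 fold change of -0.07 (SE 0.21, unadjusted p = 0.750 from edgeR). The ratio of ACO1 to IREB2 counts was 0.556 to 0.921 in FNI and 0.994 to 2.23 in FNI+I-125.

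SLC11A1 (NRAMP1), which pumps metal ions out of the phagosomes of macrophages and neutrophils, was low in FNI at 3.22, 2.14 and 2.72 CPM and stood at 35.5, 4.63 and 11.8 CPM in FNI+I-125. The groups did not overlap, but replicate 1 lay far above the other seed libraries. The log2 fold change of SLC11A1 was 2.68 (SE 0.75, unadjusted p = 0.0120 from edgeR) and 1.61 without FNI+I-125 replicate 1. Neutrophil markers, led by S100A9, CSF3R and S100A8, had the same order in the seed group, at a summed 1498, 39.6 and 128 CPM. In FNI they summed to 170, 47.2 and 16.2 CPM, an order that SLC11A1 did not share, and the groups overlapped. Of the 6 neutrophil markers tested, 0 had an unadjusted p under 0.05 from edgeR. Their part in the SLC11A1 difference was not tested.

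The sum of macrophage markers was also higher with the seed. The 10 macrophage markers with a row, led by CSF1R, CD68 and C1QC, summed to 875, 1135 and 311 CPM in FNI and 1762, 2092 and 1359 CPM in FNI+I-125, without overlap. Of the 10, 4 were higher at an unadjusted p under 0.05 from edgeR (against 9.23% of all genes). Of the same 10, 7 were higher without overlap (against 14.8%), and none was at 0 in a library. Among the named markers, CSF1R did not overlap but had an unadjusted p of 0.133 from edgeR, and C1QC overlapped between the groups. T cell markers, led by LCK, CD5 and CD3E, summed to 4.02 to 28.7 CPM in FNI and 25.1 to 81.2 CPM in FNI+I-125, which overlapped. FNI replicate 3, with the lowest macrophage sum, held the lowest value of 11 of the 31 genes, among them HMOX1, HMOX2, TXN, TXNRD1, SRXN1, GPX1, FTL, SLC11A2 and ACO1. The other genes that were higher without overlap had a different order. TFRC, NQO1 and PRDX1 were lowest in FNI replicate 1, and NFE2L2 and SLC11A1 in FNI replicate 2. Within FNI, NFE2L2 and PRDX1 were highest in replicate 3. FNI+I-125 replicate 2, with the highest macrophage sum, held the highest value of 9 of the 14 genes that were higher without overlap, and replicates 1 and 3 of 4 and 1. Replicates 1 and 2 of the seed group also held the highest muscle sums, 4831 and 4244 CPM. The part of macrophages in these differences was not tested.

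Several genes with higher values in FNI were highest in the same library as other markers. FNI replicate 3 held the highest value of 10 of the 31 genes, among them GPX3, SOD3, CAT and SLC40A1. FTH1 was also among the 10, although its mean was higher in FNI+I-125 (6487 CPM, against 5120 CPM in FNI). FNI replicate 3 also had the highest Schwann cell sum, 38688 CPM, and the highest adipocyte sum. Within the seed group, both sums were lowest in replicate 1, at 820 CPM for Schwann cells and 1013 CPM for adipocytes. SLC40A1, SOD3 and CAT were also lowest there, but GPX3 was highest there, at 77.1 CPM. The Schwann cell sums did not overlap between the groups, with a median log2 fold change of -2.73 over the 10 markers. Of these markers, 3 were lower at an unadjusted p under 0.05 from edgeR (against 7.73% of all genes). Without overlap, 4 were lower (against 12.3%). The part of Schwann cells in the differences was not tested. Adipocyte markers, led by ADIPOQ, LPL and FABP4, summed to 1603 to 4292 CPM in FNI and 1013 to 1473 CPM in FNI+I-125, without overlap, and their part in the GPX3 and SLC40A1 differences was not tested. Muscle markers, led by ACTA1, TTN and DES, were at 45.2 CPM in FNI+I-125 replicate 3, below all FNI libraries. All 8 muscle markers tested were higher at an unadjusted p under 0.05 from edgeR (against 9.23% of all genes), but 0 without overlap. The part of muscle in the differences was not tested. Red blood cell markers, led by HBB2 and ALAS2 and of interest for haem, summed to 451 to 3214 CPM in FNI and 541 to 2059 CPM in FNI+I-125, which overlapped. Fibroblast markers (COL1A1, COL3A1 and COL1A2 the highest) summed to 68975 to 137879 CPM and 98124 to 189254 CPM, endothelial markers (VWF, PECAM1 and CDH5) to 2281 to 2779 CPM and 1711 to 2837 CPM, and epithelial markers (KRT5, KRT8 and CDH1) to 150 to 1109 CPM and 30.3 to 1530 CPM. DNASE1, PIP and AQP5 led the salivary gland list. Markers at 0 in at least 1 library were MPO, CD3G, LPO and KRT18, and none was at 0 in every library.

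**Figure D5:**
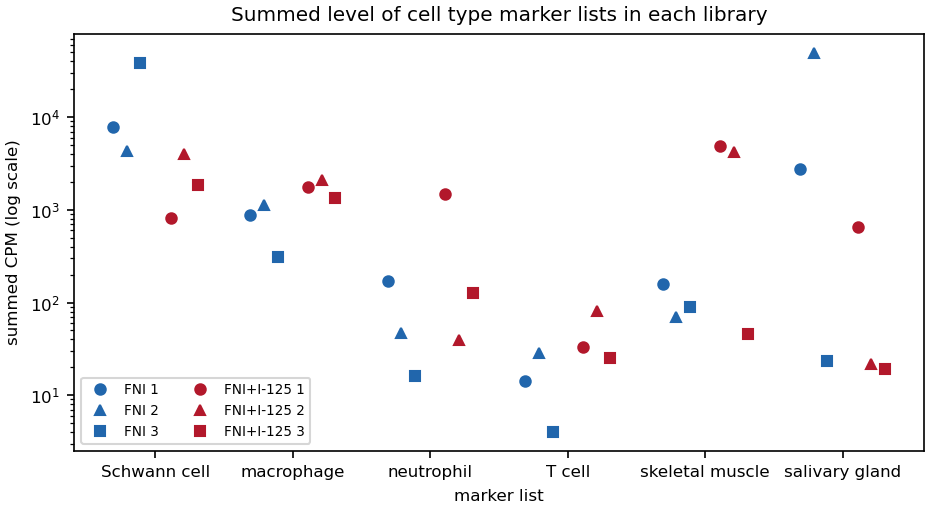
Summed CPM of 6 cell type marker lists in each library on a log scale, with FNI in blue and FNI+I-125 in red. The macrophage sums do not overlap between the groups (311 to 1135 CPM and 1359 to 2092 CPM), and neither do the Schwann cell sums (4338 to 38688 CPM and 820 to 3982 CPM). The neutrophil sum is highest in FNI+I-125 replicate 1 (1498 CPM), and the muscle sums of FNI+I-125 replicates 1 and 2 (4831 and 4244 CPM) stand apart.

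Other genes of the same pathways were taken from 4 lists, for which the shares of all genes are those given above, 9.23% higher and 7.73% lower. Of 20 other NRF2 pathway genes tested, 4 were higher at an unadjusted p under 0.05 from edgeR and 2 lower, with a median log2 fold change of 0.36. BACH1, which competes with NRF2 at haem and ferritin genes, stood at 36.4, 39.3 and 32.2 CPM in FNI and 71.6, 57.3 and 49.5 CPM in FNI+I-125, a log2 fold change of 0.73 (SE 0.17). ABCC1, which exports glutathione conjugates, had a log2 fold change of 0.89 (SE 0.22) and ME1, malic enzyme, which makes NADPH, 1.29 (SE 0.34). UGDH was the fourth, named here after its value was seen. TXNIP, which binds and inhibits thioredoxin, was lower, at 483, 441 and 729 CPM in FNI and 224, 245 and 311 CPM in FNI+I-125, a log2 fold change of -1.08 (SE 0.25), without overlap. EPHX1, an epoxide hydrolase of the same list, had -1.43 (SE 0.57).

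Of 26 other thioredoxin and glutathione genes tested, 1 was higher (3.85%) and 3 lower (11.5%), with a median of 0.13. The higher gene was SESN2, a sestrin induced by stress, at 7.73, 10.4 and 4.67 CPM in FNI and 16.9, 27.7 and 19.2 CPM in FNI+I-125, a log2 fold change of 1.48 (SE 0.35). The lower genes were GGT7, a gamma-glutamyltransferase family member (-1.31, SE 0.26), TXNRD2, the mitochondrial thioredoxin reductase (-0.52, SE 0.17), and SESN1, another sestrin (-0.47, SE 0.18). TXNRD2 and TXNRD1 thus differed in opposite directions, as did the thioredoxins they reduce, although TXN2 overlapped between the groups.

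Of 31 other iron and haem genes tested, 2 were higher (6.45%) and 1 lower (3.23%), with a median of 0.12. STEAP3, the ferrireductase that reduces iron in the endosomes filled by the transferrin receptor, stood at 16.8, 13.5 and 8.27 CPM in FNI and 35.1, 32.1 and 27.5 CPM in FNI+I-125, a log2 fold change of 1.30 (SE 0.28), without overlap. BMP6, the ligand that sets hepcidin production in the liver, had 1.01 (SE 0.36) and 0.51 without the library in which it was highest, FNI+I-125 replicate 1. SLC25A28, a mitochondrial iron carrier, was lower at -0.61 (SE 0.23).

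Of 15 enzymes and subunits that produce oxidants, 4 were higher (26.7%) and 0 lower, with a median of 0.79. XDH, xanthine oxidoreductase, stood at 4.74, 10.3 and 2.19 CPM in FNI and 21.8, 34.6 and 66.5 CPM in FNI+I-125, a log2 fold change of 2.83 (SE 0.69), without overlap. RAC2, a part of the phagocyte NADPH oxidase, had a log2 fold change of 1.94 (SE 0.62). NCF1, of the same complex, was also higher and is named here after its value was seen. RAC2 was lowest in FNI replicate 3, the library with the lowest macrophage sum, at 7.98 CPM. Of the genes of the 4 lists given with values, BACH1, ABCC1, ME1, TXNIP, SESN2, GGT7, STEAP3 and XDH kept an unadjusted p under 0.05 from edgeR with each library left out. RAC2 lost it without FNI+I-125 replicate 2 (in that fit and the others its log2 fold change was 1.47 to 2.42), and EPHX1, TXNRD2, SESN1, BMP6 and SLC25A28 lost it in 3 or 4 of the 6 fits.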

How the data were processed

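RNA of 6 facial nerves was measured, 3 from the FNI and 3 from the FNI+I-125 group. The authors prepared stranded mRNA libraries. For each library they deposited raw counts, as whole numbers per gene without normalization. The labels give a mirVana kit for extraction and the paper's methods TRIzol. The submitters' processing notes name HISAT2 and OryCun2.0, and the counting program, its strand setting and its handling of shared reads are not given in the sources used here.

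Genes were matched by symbol. Of 2992 LOC identifiers, 542 were given a RefSeq symbol by gene ID (assembly mOryCun1.1), which added 0 of the 34 members and 4 list genes. A further 25 names were spreadsheet dates, with 0.188% of the counts, and stayed in the tests. Tests were run with edgeR 4.0.16 (filterByExpr with a minimum count of 10, TMM, quasi-likelihood test, Benjamini-Hochberg adjustment over 14003 genes), limma 3.58.1 and DESeq2 1.42.0 (R 4.3.3), after tests on simulated data. At a depth of 16031151 to 16798012 counts, a gene at 0 counts in a library could still hold up to 3, for counting error only. P-values set the group difference against the variation between the libraries of these rabbits, which includes their unequal tissue content. The study's own FPKM values and test were not used.

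The members and lists were chosen with earlier results of these data known. Every member is named, with up to 3 genes per direction and pathway list by the smallest unadjusted p under 0.05, and the 3 markers of each of 11 cell type lists with the highest mean CPM. A few genes selected in this way are not reported. The alternatives were DESeq2 and limma-voom, scaling by upper quartile, by library size only or without muscle and gland genes, other filters, glmQLFit with legacy = FALSE, blocking by replicate number, and dropping each library in turn. DESeq2 with each library left out was chosen after seeing the data.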

Additional observations from a re-analysis of the deposited data

How the results depend on the processing

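Of the 31 genes, 27 kept the sign of their log2 fold change under every alternative run with them. The 4 others reversed only when a library was left out, each in the libraries named. KEAP1, at -0.07 with all libraries, ran from -0.168 to 0.033 (0.0039 without FNI+I-125 replicate 1, 0.033 without FNI replicate 3). GCLC, at 0.13, ran from -0.017 (without FNI+I-125 replicate 2) to 0.264, GCLM, at 0.04, from -0.071 (negative without FNI replicate 1 and FNI+I-125 replicates 2 and 3) to 0.183, and IREB2, at -0.07, from -0.219 to 0.108 (without FNI replicate 3). NQO1, TXN, GPX3, FTL, TFRC, SLC11A2 and ACO1 had an unadjusted p under 0.05 in all 16 fits.

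The 13 genes higher at an unadjusted p under 0.05 became 8 to 11 with a library left out, against 6.0% to 8.2% of all genes. The lowest count was without FNI+I-125 replicate 2, against 6.02% of all genes. With DESeq2 and a library left out there were 12 to 15, and limma-voom gave 12 (against 9.0% of all genes), without SLC11A1. The 1 gene lower, GPX3, became 3 with DESeq2, upper-quartile normalization, no filter on low counts and at least 10 counts in every library, and 2 with limma-voom and with legacy = FALSE. The additions were SLC40A1 and, in the fits with 3, SOD3. Of all genes, 9.85% were lower with upper-quartile normalization and 7.13% with no filter. The share was 8.95% with at least 10 counts in every library and 6.44% with limma-voom. With a library left out, 1 to 2 genes were lower with edgeR (against 3.71% to 7.51% of all genes) and 1 to 3 with DESeq2. Upper-quartile normalization moved the split of members to 12 higher and 3 lower, and that of all genes from 1293 higher and 1082 lower to 1008 and 1379. The 2 genes lower without overlap became 4 with upper-quartile normalization (adding PRDX6 and TXN2), no filter and at least 10 counts in every library, and 2 to 5 with a library left out. The last of these filters removed SLC7A11. The share of all genes is not given here for the overlap counts, DESeq2 and legacy = FALSE, so these counts have no background beside them. The cause of these shifts was not tested, beyond the fewer libraries or genes that the settings themselves leave.

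Deviations of same-numbered libraries correlated at 0.05, -0.19 and -0.14, which gave no sign of pairing by replicate number. With 3 libraries a group and unequal tissue content, these values cannot exclude pairing. With the replicate number as a block, 14 members were higher (against 9.03% of all genes) and 3 lower (against 6.83%) at an unadjusted p under 0.05. In that fit, 0 members passed an adjusted p under 0.05.

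At an adjusted p under 0.05, the 0 members of edgeR became 9 with DESeq2, and with DESeq2 and a library left out 7, 8 and 9 (FNI replicates 1, 2 and 3) and 9, 6 and 8 (FNI+I-125 replicates 1, 2 and 3). Over all genes, the study's criterion (that p and an absolute log2 fold change of 1.5 or more) called 0 genes with edgeR, 289 higher and 175 lower with DESeq2, 0 to 38 higher and 0 to 2 lower with edgeR and a library left out, the highest counts without FNI+I-125 replicate 3, and, with DESeq2 and a library left out in the same order, 206, 400, 178, 100, 158 and 342 higher and 216, 278, 77, 63, 184 and 248 lower. Lower fold thresholds also gave 0 with edgeR. Searching LOC identifiers added no member, so this alternative gave no value. The biological coefficient of variation was 43% with 3 rabbits a group.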
